A study of Rattus norvegicus with 33 samples.

Results

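Hepatocyte growth factor (Hgf), its receptor Met and 4 genes that set how much of the growth factor is activated were followed through rat prostates exposed to sex hormones early in life, in adulthood or both. The 4 genes are Hgfac, St14, Spint1 and Spint2. They make 6 of the 23346 genes tested. They were found by gene name on the array, and the brightest probe stood for each gene. Hgf was picked on its measured values, because it was higher with T+E at PND 145 and EB+T+E lacked that rise. Those PND 145 values are therefore given as a description, without a test, and the other comparisons were tested.

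HGF is made by fibroblasts and other mesenchymal cells and acts on neighbouring epithelium, where MET is its receptor tyrosine kinase. It is secreted as an inactive single chain that binds matrix and must be cut into 2 chains before it can activate MET. Serum-derived HGF activator (the product of Hgfac) and the membrane protease matriptase (St14) make that cut, and the Kunitz-type inhibitors of Spint1 and Spint2 restrain both proteases. In the prostate this ligand and receptor pair is a textbook route by which stroma signals to epithelium, and it is studied in branching and in invasive growth.

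All animals were male Sprague-Dawley rats, and each array carries the RNA of 1 prostate sample. EB groups had subcutaneous estradiol benzoate at 2.5 mg per kg on postnatal days (PND) 1, 3 and 5, and the other groups had vehicle. From PND 90, EB+T+E and T+E rats carried 2 silastic tubes with testosterone and 1 with estradiol, and adult EB and control rats carried 3 empty tubes. The arrays comprise EB (4) and control (4) at PND 30. At PND 100, after 10 days of implants, they comprise EB+T+E, T+E, EB and control (3 each). At PND 145, after 55 days, they comprise EB+T+E (3), T+E (3), EB (4) and control (3). T+E combines both steroids, so neither can be told apart from the other. The labels count 3 to 4 litters per group. They call the tissue whole prostate in one place and dorsolateral prostate in another.

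The 33 single-colour arrays had 61.5% to 68.9% of 58717 spots well above background and no saturated spot, and their number limits the precision. A level here is log2 of a probe's background-subtracted intensity minus log2 of the 75th percentile of its array, so 0 means as bright as that percentile. Levels of different genes are not compared, because each probe has its own brightness. The prostate markers Pbsn and Hoxb13 were well above background on all 33 arrays. Summed levels of 4 ventral prostate secretory products ranged from 9.27 to 394 times the 75th percentile, and those of 5 seminal vesicle products from 10.8 to 206. EB+T+E PND 100 replicate 1 stood apart, with a summed level of 11 epithelial markers of 13.2 against at least 36.8 on every other array. Correlations between replicates over all genes were 0.864 to 0.942 in that group and 0.911 to 0.986 in the others. In whole tissue, fewer cells of a type and less RNA per cell cannot be told apart.

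Hgf, Met, Hgfac and Spint1 each had a second probe, and the second probes repeat the measurement with independent sequence. The probes below are shown because the Hgf and Met ones repeat the changes described next and the Spint1 one repeats a low array. Coordinates are those of the array files, whose grid names rat build rn4, and each probe has a reading frame without a stop codon. The Met probe's 60 bases cover a span of 1217 bases in that build.
Hgf second probe, chr4:14864538-14864597, minus strand: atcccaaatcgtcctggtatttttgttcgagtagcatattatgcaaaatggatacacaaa
Met second probe, chr4:43202449-43203665, plus strand: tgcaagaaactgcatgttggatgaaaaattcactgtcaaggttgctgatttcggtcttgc
Spint1 second probe, chr3:105768972-105769031, plus strand: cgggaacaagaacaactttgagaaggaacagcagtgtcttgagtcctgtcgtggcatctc
In RefSeq's GRCr8 table Hgf lies on chromosome 4 from 19628902 to 19700467 and Met on chromosome 4 from 46756823 to 46864041. Spint1 lies on chromosome 3, Spint2 on chromosome 1, St14 on chromosome 8 and Hgfac on chromosome 14.

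At PND 145 Hgf stood at -0.52, -1.72 and -0.16 on the T+E arrays, against -6.33, -7.04 and -7.49 on the control arrays. The T+E arrays were the 3 highest of all 33, and 2 of the 3 control arrays were not well above background. The group means were -0.80 ± 0.82 for T+E and -6.95 ± 0.59 for control (SD, n = 3 each), a difference of 6.15. It was 4.18 with normexp background correction, and 1 of 3 control arrays was well above background. On the 3 slides that held both groups the difference was 5.80, 5.32 and 7.32. EB+T+E arrays at the same age stood at -4.67, -5.40 and -5.69. EB+T+E and T+E arrays did not overlap, and the difference of means, EB+T+E minus T+E, was -4.45. It was -3.68 and -5.52 on the 2 slides that held both. EB+T+E also lay above the control arrays, by 1.70, without overlap. EB arrays at PND 145 stood at -6.27, -5.75, -7.62 and -6.04 and overlapped the control arrays. These values chose the gene, and no test is given for them.

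The second Hgf probe, in coding sequence, gave the same order of group means at PND 145. It stood at -2.09, -2.97 and -1.53 on the T+E arrays, whereas no control array of any age was well above background for it. Hgf by this probe was at least 31.2-fold higher with T+E than in control rats at PND 145, a bound that puts each control array at its detection limit or, where higher, at its own signal. Of the EB+T+E arrays at PND 145, 1 of 3 was well above background for it, at -6.43. No EB array at that age was, so the order below T+E rests mostly on signal not well above background. These arrays also chose the gene, so the second probe is no separate evidence of the PND 145 pattern.

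At PND 100, which the rule for choosing the gene did not use, Hgf was already higher with T+E. The 6 genes were still chosen with earlier results of these data known, so this test is not wholly separate from the choice. The values of Hgf at PND 100 follow. Hgf stood at -2.91, -3.60 and -4.16 on the T+E arrays, against -6.50, -5.82 and -6.48 on the control arrays. Every T+E array lay above every control array, and all 6 were well above background. The log2 ratio was 2.71 ± 0.56 (SE), a 6.53-fold rise, with an adjusted p of 0.0386 by limma. Hgf was the only 1 of the 6 genes called at an adjusted p under 0.05 in this comparison, where 0.193% of all genes tested were called. Within the 3 slides that held both groups the log2 ratio was 3.57, 2.89 and 1.65. The call was not stable to the choice of arrays. The log2 ratio stayed between 2.38 and 3.01 when any 1 of the 6 arrays was left out. With normexp background correction it was 1.60 (adjusted p = 0.0361), and with the mean of all probes 3.10. The adjusted p rose to 0.151, 0.130 and 0.155 without control replicates 1, 2 and 3, and to 0.117 and 0.130 without T+E replicates 1 and 2. It was 0.0486 without T+E replicate 3. With no filter on dim probes it was 0.0531, and with the filter of 17 arrays 0.0541. The second probe stood at -4.90, -6.11 and -5.55 on the T+E arrays, at least 3.24-fold above control.

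**Figure D1:**
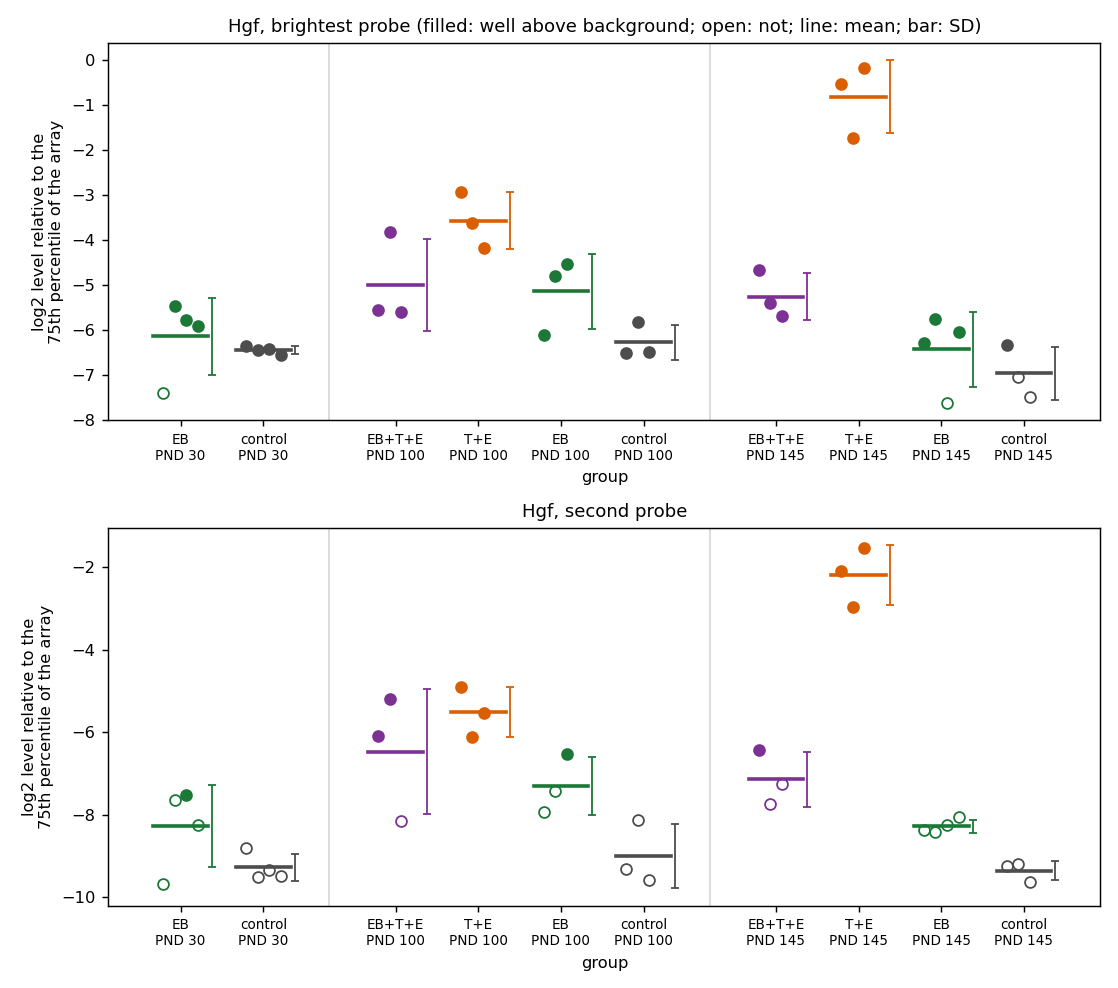
Levels of Hgf on each of the 33 arrays by its brightest (top) and second probe (bottom), as log2 relative to the 75th percentile of the array, in 10 groups. Filled points are well above background, open points are not, lines are group means and bars SD. The 3 T+E arrays at PND 145 are the highest for both probes, and T+E at PND 100 has the next highest mean.

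With EB before T+E, Hgf at PND 100 stood at -5.55, -3.81 and -5.60, between the T+E and control arrays and overlapping the T+E arrays. EB+T+E minus T+E was -1.43 ± 0.56 with a 95% interval of -2.58 to -0.27 and an adjusted p of 0.142. None of the 6 genes was called in that comparison, in which 4.00% of all genes were. Without EB+T+E replicate 2, the highest of its group, the log2 ratio was -2.02 and the adjusted p 0.0381. Without EB+T+E replicate 3, St14 at -1.23 (adjusted p = 0.0148) and Spint2 at -1.88 (adjusted p = 0.0114) were called in its place. Over all genes, 8 to 5562 were called in that comparison with 1 array left out, against 935 in the main fit. Against control, EB+T+E gave 1.28 ± 0.56 for Hgf (adjusted p = 0.136). With the mean of all probes this ratio was 1.90 and passed the test (adjusted p = 0.0231), and with normexp it was 0.61 (adjusted p = 0.275). The interaction, which asks whether EB changed the T+E effect at PND 100, was -2.56 ± 0.80 for Hgf with an adjusted p of 0.334, and it was called for 0 of all genes tested. The difference between the T+E effects with and without EB at PND 100 thus did not pass the test.

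EB alone against control did not pass the test for Hgf at PND 30 or PND 100. EB arrays at PND 100 stood at -6.10, -4.79 and -4.52, of which the lowest overlapped the control arrays. The log2 ratio was 1.13 ± 0.56 (95% interval -0.03 to 2.29, adjusted p = 0.236). None of the 6 genes was called for EB against control at PND 100, where 2.69% of all genes were. At PND 30 Hgf stood at -7.38, -5.46, -5.78 and -5.90 on EB arrays, against -6.34, -6.44, -6.41 and -6.54 on control arrays. The EB arrays spread on both sides of the control arrays (0.30 ± 0.49, adjusted p = 0.823). Of all genes 0.0471% were called at PND 30, and none of the 6.

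In control rats Hgf did not move with age by the test. PND 100 against PND 30 gave 0.16 ± 0.53 (adjusted p = 0.954), with 0 of the 6 genes called and 2.24% of all genes. PND 145 minus PND 100 was -0.69, a description since the PND 145 control arrays entered the choice. None of the 6 genes was called there, nor was any gene tested (0.00%), while 579 genes had an unadjusted p under 0.05 by limma. In order of mean level, T+E at PND 145 came first and T+E at PND 100 next, at -3.56. EB+T+E at PND 100 (-4.99), EB at PND 100 (-5.14) and EB+T+E at PND 145 (-5.25) followed, and the remaining 5 means lay between -6.13 and -6.95. The first 2 groups in that order had no overlapping arrays, with T+E at PND 145 higher by 2.76. Every later neighbour in the order overlapped the one before it.

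Several lists of markers of other cells differed between the groups at PND 145, given without a test. T+E minus control was above 1 for 6 of 9 fibroblast markers (median 1.17) and 6 of 8 leukocyte and myeloid markers (median 1.38), against a median of -0.04 over all genes. The summed fibroblast level was 21.7 to 33.6 on T+E arrays and 10.6 to 13.3 on control arrays. EB+T+E arrays, on which Hgf was lower than with T+E, had a higher summed fibroblast level, 39.1 to 52.5. Their summed leukocyte level was 18.8 to 32.7, against 3.64 to 8.06 on T+E arrays. Across the 33 arrays Hgf had r = 0.04 (Spearman's rho 0.24) with the mean of the fibroblast markers and r = 0.00 (rho -0.30) with that of the epithelial ones. At PND 100 T+E against control called 0 of 9 fibroblast markers, with a median log2 ratio of 0.66. Summed adipocyte levels at PND 145 overlapped between the groups. They were 0.170 to 0.359 on T+E arrays, 0.0195 to 0.443 on control arrays and 0.0653 to 0.553 on EB+T+E arrays. Plin1, 1 of the 4 adipocyte markers, was well above background on 3 of 33 arrays. The medians of the adipocyte markers ran in the direction of Hgf in both differences. T+E minus control was above 1 for 3 of 4 (median 1.67), and EB+T+E minus T+E was below -1 for 2 of 4 (median -0.94). Mast cell markers had medians of 0.51 and -0.86 in these differences. With the mean of the leukocyte markers Hgf had r = 0.25 (rho 0.61). The secretory products differed too. All 4 ventral prostate products were lower by more than 1 with T+E than in control rats at PND 145, with summed levels of 9.27 to 30.2 against 55.4 to 272. At PND 100 the direction was the other way, with sums of 234 to 291 on T+E arrays and 10.6 to 176 on control arrays, and none of the 4 was called. Hgf was higher with T+E at both ages. The part of cell makeup and of the lobes sampled in the Hgf values was not tested.

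The 5 genes whose levels were most like those of Hgf were ranked by Pearson's r over the 33 arrays, among 15476 genes with a symbol. They were Akr1b7 (r = 0.861), Zbtb40 (0.857), Slc18a1 (0.852), Khdrbs2 (0.83) and Csn2 (0.827). The points share arrays and scaling, and the few T+E arrays weigh heavily in each r. Akr1b7 encodes an aldose reductase-like enzyme and Csn2 the milk protein beta-casein. Akr1b7 averaged -1.77 ± 1.11 with T+E at PND 145, while no control or EB array of any age was well above background for it. Csn2 averaged -1.81 ± 2.93 with T+E at PND 145 and -5.00 ± 1.00 with T+E at PND 100, and likewise no control or EB array was well above background. Slc18a1, a vesicular monoamine transporter, averaged 1.51 ± 0.49 with T+E and -2.74 ± 0.35 in control rats at PND 145. EB+T+E means at PND 145 lay between the T+E and control means for all 5. These arrays entered the ranking that chose the 5 genes, so this order is no separate evidence. For Csn2 the EB+T+E mean was -8.23, with 1 of 3 arrays well above background, and the control mean -9.02, with none.

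Hgf's promoter is shown because Hgf is the ligand and was called for T+E against control at PND 100. It is the 250 bases before the gene's start in RefSeq (GRCr8, chr4:19700468-19700717, minus strand), with the capitals marking TGACC, the reverse complement of the estrogen response half-site GGTCA.
Hgf promoter: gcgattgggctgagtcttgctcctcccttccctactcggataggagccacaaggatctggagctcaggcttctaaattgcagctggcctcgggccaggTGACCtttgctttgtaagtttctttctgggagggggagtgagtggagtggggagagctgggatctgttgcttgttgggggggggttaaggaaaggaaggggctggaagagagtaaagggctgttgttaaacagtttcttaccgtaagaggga
The half-site GGTCA, searched on both strands, stood once in this window and in 35.4% of 33469 promoter windows of that length. The androgen response half-site AGAACA stood in 17.5% of windows and not in this one. GGTCA followed after any 3 bases by TGACC, the full palindrome that holds the half-site, stood in 0.0239% of windows and in none of the 5 members with a promoter entry. A match is only a description of these letters.

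Met, the receptor, fell with EB+T+E against control at PND 100, and its T+E levels were lower than control without passing the test. At PND 100 its level was 0.20, 1.58 and -0.58 on EB+T+E arrays, 0.17, 0.68 and 0.77 on T+E arrays, 1.04, 2.76 and 1.89 on EB arrays and 2.44, 1.94 and 1.29 on control arrays. All T+E arrays lay below all control arrays, while EB+T+E replicate 2 lay within the control range. Set against control, EB+T+E gave -1.49 ± 0.41 (SE), or 0.355 times the control level, with an adjusted p of 0.0181. Met was 1 of 6 genes called there, where 12.6% of all genes were. That call was lost without control replicate 1 (-1.22, adjusted p = 0.106), control replicate 2 (adjusted p = 0.0547), EB+T+E replicate 1 (-1.39, adjusted p = 0.0957) and EB+T+E replicate 3 (adjusted p = 0.0744). It was also lost with normexp background correction (adjusted p = 0.0512) and with only the 2 groups in the fit (adjusted p = 0.300). Without EB+T+E replicate 2 the log2 ratio was -2.09. In the same comparison 3 of 11 epithelial markers fell (median -1.21) and 8 of 8 leukocyte markers rose, and their part in the Met value was not tested.

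T+E against control at PND 100 gave a Met ratio of -1.35 ± 0.41, with a 95% interval of -2.19 to -0.51 and an adjusted p of 0.196. The groups did not overlap, and the 3 slides gave -1.13, -1.77 and -1.16. Against EB, the EB+T+E ratio was -1.50 ± 0.41 (adjusted p = 0.0561). None of the 6 genes was called in that comparison, in which 1.71% of all genes were. With the slide as a block the adjusted p of Met was 0.0476, without EB replicate 1 it was 0.0174 and without EB+T+E replicate 2 it was 0.0026. EB alone against control at PND 100 gave 0.00 ± 0.41, with a 95% interval of -0.84 to 0.85. At PND 30 Met stood at 1.66, 1.19, 1.43 and 0.81 on EB arrays, all below the control arrays at 2.13, 1.88, 2.24 and 2.16. That ratio was -0.83 ± 0.35 with an adjusted p of 0.350, and it lay below 0 on each of 4 slides, between -0.47 and -1.07.

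**Figure D2:**
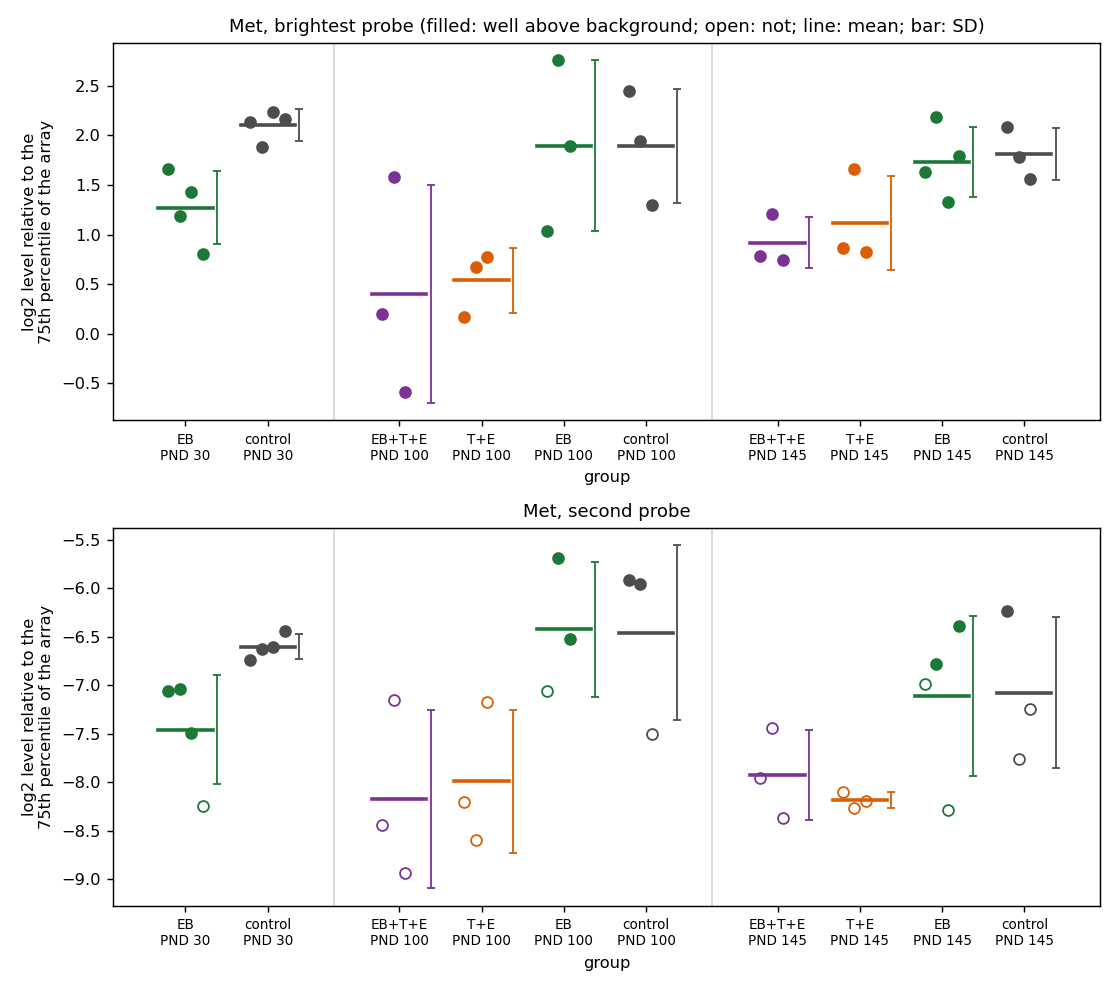
Levels of Met on each of the 33 arrays by its brightest (top) and second probe (bottom), as log2 relative to the 75th percentile of the array. Filled points are well above background, open points are not, lines are group means and bars SD. At PND 100 the T+E arrays lie at 0.17 to 0.77, below the control arrays at 1.29 to 2.44, and no T+E or EB+T+E array is filled in the lower panel.

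At PND 145 Met stood at 0.79, 1.21 and 0.75 on EB+T+E arrays, 0.86, 1.66 and 0.82 on T+E arrays, 1.63, 2.18, 1.33 and 1.79 on EB arrays and 2.08, 1.78 and 1.56 on control arrays. EB+T+E arrays lay below all EB arrays. The log2 ratio of EB+T+E against EB was -0.82 ± 0.38 (95% interval -1.61 to -0.03, adjusted p = 0.121). None of the 6 genes was called in that comparison, in which 22.9% of all genes were. EB against control gave -0.07 ± 0.38 for Met. None of the 6 was called there either, where 0.570% of all genes were. T+E minus control was -0.69 with overlapping arrays, given without a test because it is the contrast that chose Hgf. The second Met probe, in the kinase coding sequence, was well above background on 14 of 33 arrays. These were 7 of 8 arrays at PND 30 and 7 of 13 adult EB and control arrays, but 0 of 12 arrays with T+E or EB+T+E.

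Over the 33 arrays Hgf and Met had r = -0.34, a description. The genes most like Met were Exosc8 (r = 0.837), Mpped2 (0.827) and Col24a1 (0.827). The epithelial markers had values lying the same way as Met between T+E and control arrays at PND 100. The mean log2 level of the 11 markers was 1.57 to 1.75 on T+E arrays and 1.85 to 1.96 on control arrays, without overlap. The summed level of 11 epithelial markers was 67.7 to 93.1 on T+E arrays and 85.8 to 95.2 on control arrays at PND 100, with a median log2 ratio of -0.17 and 0 called. Their part in the Met difference was not tested. EB+T+E replicate 3 at PND 100 had the lowest Met level of all, -0.58, with an epithelial sum of 72.4.

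Hgfac was dim and varied more within groups than between most of them. The gene encodes a circulating protease best known as a liver product, and it was well above background on 25 of 33 arrays. At PND 30 it stood at -5.06, -4.52, -4.93 and -6.23 on EB arrays, against -5.54, -5.43, -5.15 and -4.97 on control arrays (0.09 ± 0.66, adjusted p = 0.966). Control arrays at PND 100 stood at -8.39, -7.51 and -6.31, all below the PND 30 control arrays, and 2 of these 3 were not well above background. PND 100 against PND 30 was -2.13 ± 0.71 with an adjusted p of 0.126. With only the 2 groups in the fit it was called (adjusted p = 0.0352), as was Spint1 at 0.49 (adjusted p = 0.0349). With normexp the Hgfac ratio was -0.49 (adjusted p = 0.483), and without PND 100 control replicate 1 it was -1.64 (adjusted p = 0.499). The second probe was well above background on 7 of 8 arrays at PND 30 and on none of the 6 control arrays of adults. With implants, Hgfac stood at -7.18, -6.67 and -7.81 at PND 100 and at -7.70, -4.77 and -6.18 at PND 145 on T+E arrays. T+E against control at PND 100 was 0.18 ± 0.76 (95% interval -1.37 to 1.74), so that a change of a few-fold either way was not detectable. Of the 4 liver markers, Serpina1 was well above background on 33 arrays, Apoa1 on 16, Alb on 6 and Fgb on 1, and the summed liver level stayed under 0.185 on every array.

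St14, Spint1 and Spint2, the epithelial protease and its 2 inhibitors, were not called between T+E and control arrays at PND 100. St14 stood between 3.70 and 4.07 on the 6 T+E arrays and between 3.72 and 4.12 on the 10 control arrays. Spint2 stood between 3.67 and 4.03 on T+E arrays and between 3.50 and 4.03 on control arrays. Spint1 stood between 0.77 and 1.60 on T+E arrays and between 0.67 and 1.85 on control arrays. T+E against control at PND 100 was -0.08 ± 0.36 for St14 (95% interval -0.81 to 0.65). It was -0.30 ± 0.41 for Spint1 (-1.15 to 0.55), where the arrays did not overlap, and -0.08 ± 0.51 for Spint2 (-1.14 to 0.97). Spint1 was also without overlap between control rats at PND 100 and PND 30 (0.49 ± 0.39, adjusted p = 0.659). The same held between T+E at PND 145 and PND 100, where the difference was 0.46. By the second Spint1 probe T+E and control arrays at PND 100 overlapped (-0.29), as did T+E arrays at PND 145 and PND 100 (0.19). Control arrays at PND 100 and PND 30 did not overlap by that probe (0.79). The share of all genes without overlap is not given. Spint2 did not overlap between control rats at PND 100 and PND 30 (0.22 ± 0.48, adjusted p = 0.921).

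None of the 3 genes passed the test for EB+T+E, whose arrays spread widely, or for EB alone against control. At PND 100 every EB array lay below every control array for each gene. Those log2 ratios were -0.60 for St14, -0.48 for Spint1 and -0.81 for Spint2 (adjusted p = 0.322, 0.522 and 0.360). The second Spint1 probe gave -1.06 for EB against control, also without overlap. The share of all genes without overlap in this comparison is not given, and the 3 genes followed one another from array to array. At PND 100 EB+T+E arrays stood at 1.90, 3.52 and 4.04 for St14, at -1.31, 1.13 and 1.03 for Spint1 and at 0.71, 3.03 and 3.76 for Spint2. Replicate 1 was the lowest of all 33 arrays for each gene, and the second Spint1 probe was also lowest there, at -3.93. EB+T+E against control at PND 100 gave -0.87 ± 0.36 for St14 (adjusted p = 0.106), -1.09 ± 0.41 for Spint1 (adjusted p = 0.0827) and -1.33 ± 0.51 for Spint2 (adjusted p = 0.0869). Without replicate 1 these log2 ratios were -0.24, -0.29 and -0.44. Without replicate 3 all 3 were called, at -1.31 (adjusted p = 0.00999), -1.46 (adjusted p = 0.0186) and -1.96 (adjusted p = 0.00858). Replicate 1, the lowest array for each gene, stayed in that fit. Over all genes, 706 to 5752 were called in this comparison with 1 array left out, against 2943 in the main fit. Spint1 was also called without replicate 2 (-1.51, adjusted p = 0.0200), and Spint2 with the slide as a block (-1.52, adjusted p = 0.0489).

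**Figure D3:**
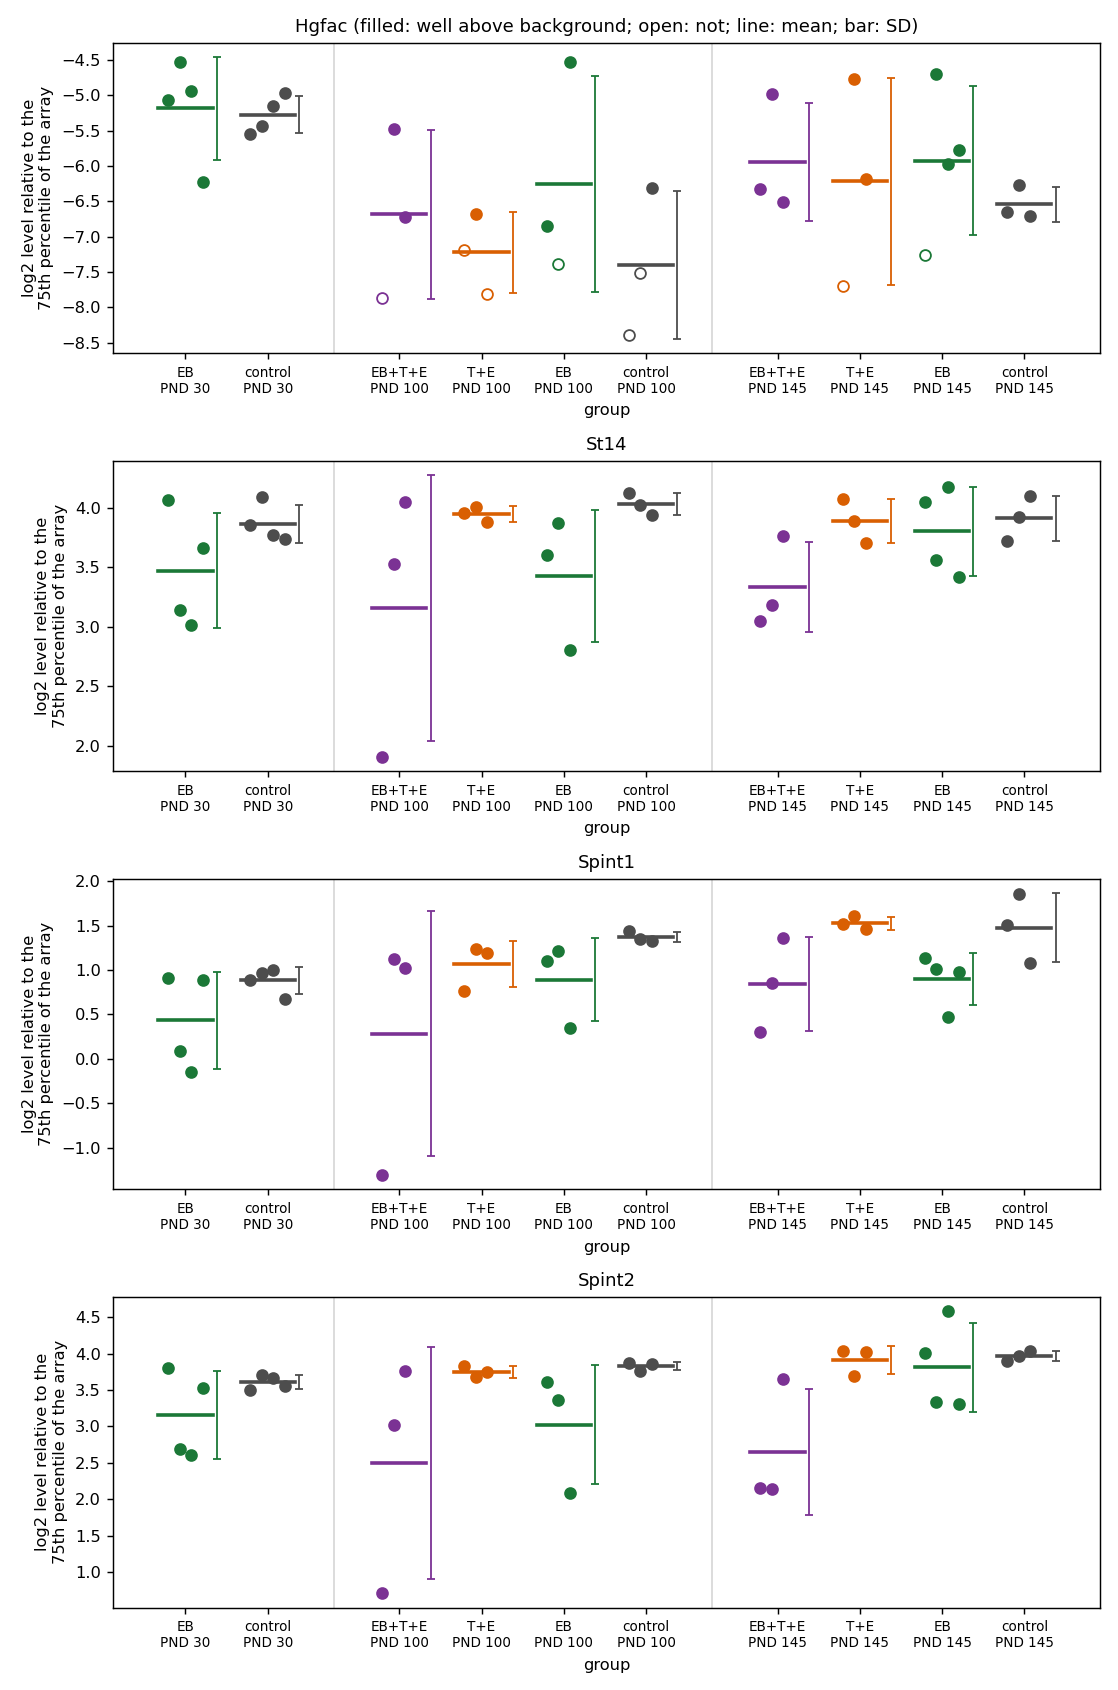
Levels of Hgfac, St14, Spint1 and Spint2 on each of the 33 arrays by the brightest probe, as log2 relative to the 75th percentile of the array. Filled points are well above background, open points are not, lines are group means and bars SD. For St14, Spint1 and Spint2 the lowest array is EB+T+E PND 100 replicate 1, at 1.90, -1.31 and 0.71.

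At PND 145 Spint2 stood at 2.16, 2.15 and 3.65 on EB+T+E arrays, against 4.03, 3.69 and 4.02 on T+E arrays and 4.01, 3.34, 4.58 and 3.30 on EB arrays. EB+T+E replicates 1 and 2 were below all arrays of the other groups at that age, and replicate 3 lay within the EB range. The log2 ratio of EB+T+E to EB was -1.16 ± 0.48 (adjusted p = 0.0807), and without replicate 3 it was -1.66 with an adjusted p of 0.0200. St14 was 3.05, 3.18 and 3.76 on the same EB+T+E arrays (-0.47 ± 0.33 against EB, adjusted p = 0.314). Spint1 was 0.30, 0.85 and 1.36 there (-0.06 ± 0.39 against EB, adjusted p = 0.931).

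The 3 genes followed one another and the epithelial markers from array to array. St14 and Spint2 had r = 0.948 over the 33 arrays, Spint1 and St14 0.793, and Spint1 and Spint2 0.774. With the mean log2 level of 11 epithelial markers, St14 had r = 0.907 (Spearman's rho 0.681), Spint2 r = 0.901 (rho 0.727) and Spint1 r = 0.863 (rho 0.654). Without the 2 arrays farthest from the median of that mean, r was 0.832, 0.815 and 0.714. Met had r = 0.337 with it, and 0.10 without those 2 arrays. These are descriptions over arrays that share groups and scaling. The genes most like St14 were Spint2, Llgl2 and Crb3, those most like Spint1 were Cldn8, Cmtm8 and Exph5, and those most like Spint2 were Hoxb13, Spdef and Epn3. Crb3 and Llgl2 are epithelial polarity genes, and Hoxb13 and Spdef are transcription factors of prostate epithelium. The epithelial sum was 13.2 on EB+T+E PND 100 replicate 1, and 39.2 on EB PND 100 replicate 3, the next lowest array for St14. The part of epithelial content in the lower levels was not tested.

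**Figure D4:**
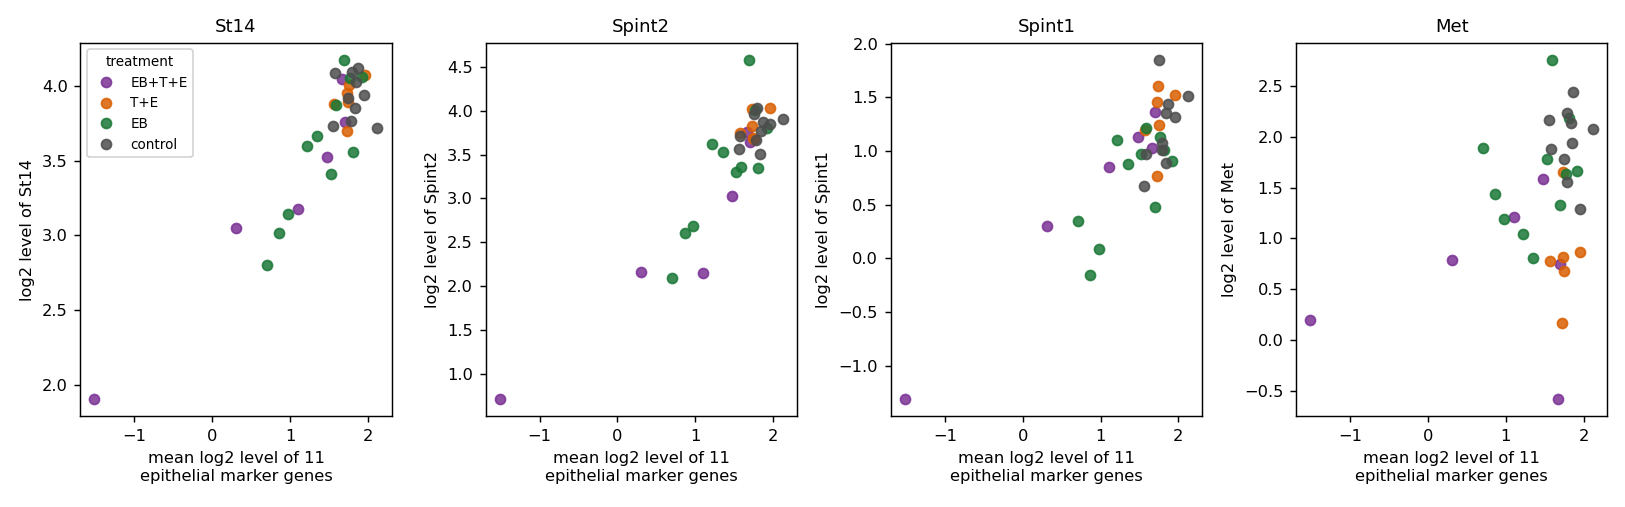
Log2 level of St14, Spint2, Spint1 and Met (vertical axes) against the mean log2 level of 11 epithelial marker genes (horizontal axes), both relative to the 75th percentile of the array, 1 point for each of the 33 arrays and coloured by treatment. St14, Spint2 and Spint1 follow the markers (r = 0.907, 0.901 and 0.863), and at PND 100 T+E arrays lie at 1.57 to 1.75 on the marker axis, below control arrays at 1.85 to 1.96.

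**Figure D5:**
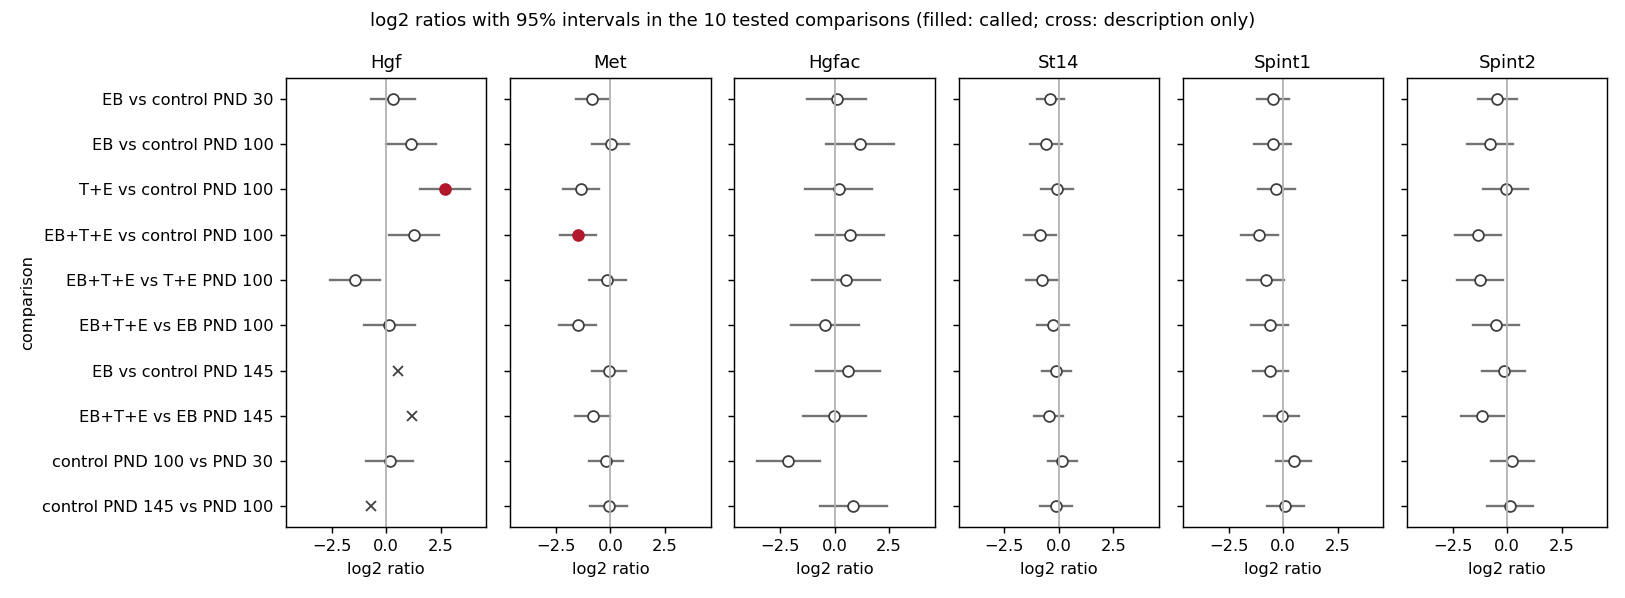
Log2 ratios of the 6 genes with 95% intervals in the 10 tested comparisons, 1 panel for each gene and 1 row for each comparison. Filled points are called at an adjusted p under 0.05, and crosses mark Hgf values at PND 145 that are descriptions only. Hgf is called for T+E against control at PND 100 (2.71) and Met for EB+T+E versus control at that age (-1.49).

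The wider pathway was read in 6 lists that include the 6 genes. With T+E alone at PND 100, Hgf was the only gene called in any list, beside 0.193% of all genes. This was 1 of 12 in the list of ligand, receptor and coreceptors, and 0 of 10 activating proteases, 0 of 8 inhibitors and matriptase partners, 0 of 20 signal relay genes, 0 of 13 attenuators and 0 of 12 response genes. EB alone called 1 of 75 measured list genes at PND 100, the laminin-binding integrin gene Itgb4 (1.38 ± 0.34, adjusted p = 0.0361), beside 2.69% of all genes. That call was lost without EB replicate 3 and without any 1 of the control arrays. EB called none at PND 30 and none at PND 145, beside 0.0471% and 0.570% of all genes. At PND 145 T+E minus control was above 1 for 3 of 12 response genes and for 1 of 12 ligand and receptor genes, Hgf itself, without a test. It was also above 1 for 2 of 10 activating proteases, 2 of 13 attenuators and 1 of 8 inhibitors and matriptase partners, and for 0 of 20 relay genes. Below -1 lay 1 of those 8 and no gene of the other lists. The share of all genes above 1 is not given.

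EB+T+E against control at PND 100 called 4 higher and 2 lower of 12 ligand, receptor and coreceptor genes, with a median log2 ratio of 0.06 against -0.09 over all genes. These and the other list counts of this comparison stand beside 12.6% of all genes called. Itgb4 rose by 1.34 ± 0.34 (adjusted p = 0.0124). Mst1r, the receptor most closely related to Met, was well above background on 2 of 3 EB+T+E arrays and on no control array, at least 3.11-fold higher (adjusted p = 0.0257). Plxnb1, a semaphorin receptor that can pair with Met, fell by 1.22 ± 0.34 (adjusted p = 0.0187). Among activating proteases 2 of 10 fell and none rose, with F2, the prothrombin gene, at -2.89 ± 0.60 (adjusted p = 0.00339) and Tmprss13 at -2.44 ± 0.64 (adjusted p = 0.0144). Of the 8 inhibitors and matriptase partners 1 fell, F2rl1, by 1.03. Of the 20 relay genes Crk fell by 0.45 (adjusted p = 0.0280), and of the attenuators Ptprj and Lrig1 fell, 2 of 13. Hmox1, the gene of the stress enzyme heme oxygenase, was the 1 response gene of 12 called, at 2.52 ± 0.58. Without EB+T+E replicate 1, the array low in epithelial markers, 2 of these calls remained, F2 and Lrig1, and 0 of 12 ligand, receptor and coreceptor genes were called. F2 was called in all 6 fits that left out 1 array, and the other named genes in 1 to 5 of them. Set against T+E, EB+T+E gave lower F2 (-2.41, adjusted p = 0.0260) and higher levels of the Met coreceptor gene Cd44 (2.10, adjusted p = 0.0330). No other list gene was called there, where 4.00% of all genes were. Both calls were lost without EB+T+E replicate 1, and also without T+E replicate 1 or 2, and that of Cd44 without T+E replicate 3 as well. In both comparisons leukocyte markers rose, 8 of 8 against control and 7 of 8 against T+E. EB+T+E against EB at PND 100 called no list gene, beside 1.71% of all genes.

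EB+T+E against EB at PND 145 called members of 5 of the 6 lists, beside 22.9% of all genes. Response genes, attenuators and proteases were called more often than that share, and the other lists less often. Whether any list departs from that share was not tested. Of 12 response genes 6 rose and none fell, with a median log2 ratio of 1.55 against -0.22 over all genes. They include Hmox1 (3.17 ± 0.54, adjusted p = 0.000199), the urokinase receptor gene Plaur (3.30 ± 0.74, adjusted p = 0.00229) and Ets1 (2.24 ± 0.56, adjusted p = 0.0051). Mmp9, a matrix metalloprotease, was on no EB array well above background and at least 4.97-fold higher. Of 13 attenuators 4 rose, among them Socs3 at 3.95 ± 0.95 (adjusted p = 0.00394), and 1 fell, Spry2, named after its values were seen (-0.61 ± 0.21, adjusted p = 0.0346). Of 10 proteases Plat and Tmprss2 rose, by 1.82 and 1.75, and Hpn, the gene of hepsin, fell. Hpn was well above background on no EB+T+E array and on 1 of 4 EB arrays, and was at least 1.29-fold lower. Of 20 relay genes Crk, Pik3ca and Ptk2 fell, by 0.49, 0.63 and 0.46, and none rose. The coreceptor Nrp1 rose by 2.00 ± 0.55, 1 of 12. Hmox1, Plaur, Mmp9, Socs3, Errfi1, Hpn and Crk were called in all 7 fits that left out 1 array. The number of response genes that rose was 3 without EB+T+E replicate 1, 4 without EB+T+E replicate 2 and 4 without EB replicate 3. Attenuators that rose numbered 2 without EB+T+E replicate 1, and Plat and Tmprss2 lost their calls without EB+T+E replicate 2. Several of these genes are also expressed by leukocytes, and 8 of 8 leukocyte markers rose in the same comparison, with summed levels of 18.8 to 32.7 on EB+T+E arrays and 1.99 to 4.14 on EB arrays. Their part in the list counts was not tested.

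Control rats at PND 100 against PND 30 called 3 list genes, beside 2.24% of all genes. These were 1 of 12 response genes, 1 of 13 attenuators and 1 of 20 relay genes. Snai2, a transcription factor of mesenchymal cells, fell by 1.85 ± 0.40 (adjusted p = 0.00871), Sh3kbp1 fell by 1.28 ± 0.33 (adjusted p = 0.0318) and Crk rose by 0.46 ± 0.13 (adjusted p = 0.0479). Of 9 fibroblast markers 3 fell in the same comparison. Other marker lists were lower at PND 100 too. The summed basal and squamous level was 15.5 to 31.0 at PND 30 and 8.86 to 16.5 at PND 100. The summed smooth muscle level was 51.2 to 65.6 at PND 30 and 25.2 to 39.5 at PND 100. The part of cell makeup in these 3 calls was not tested. With 1 array left out, Snai2 was called in 6 of 7 fits (not without PND 100 replicate 2), Sh3kbp1 in 2 and Crk in 0.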

How the data were processed

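Total RNA (500 ng, RIN of at least 8.0) was labelled with Cy3, per the labels' protocols, for single-colour Agilent 8x60K arrays. The scanner software was Agilent Feature Extraction 12.0.0.7 (protocol GE1_1200_Jun14), per the file headers. The deposited spot values are linear intensities, background-subtracted within each array. The authors' deposited value table holds intensities scaled to a 75th percentile of 619.4 to 619.5 on each array. Its scaling method is not given in the sources used.

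Outlier spots were left out and spots of a probe averaged. A probe needed 3 or more of 33 arrays well above background (30543 of 45598 passed), and the brightest stood for each gene, leaving 23346 genes. Symbols came from RefSeq accessions for 21184 probes. A group-mean model in limma 3.58.1 (R 4.3.3, trended and robust variance) used Benjamini-Hochberg adjustment over all genes in each of 10 comparisons. All 10 groups share 1 estimate of spread, on which the standard errors and 95% intervals rest. Replicates are labelled samples, and the labels do not tie each to an animal or litter, so p-values measure the spread between samples. The fit was tested on simulated data. Alternatives were normexp (offset 50), quantile scaling, 2 other filters, the mean of all probes, the authors' table, slide and replicate blocks, fewer groups and each array left out, which for the list counts was added after seeing the data. Named genes are the members, the 5 (Hgf) or 3 genes most like each, and up to 4 called genes of each list by smallest p. The members and lists were chosen with earlier results of these data known. Some genes of these lists are not reported here.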

Additional observations from a re-analysis of the deposited data

How the results depend on the processing

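Over 930 log2 ratios of the 6 genes recomputed under the alternatives, 851 kept their direction and their side of the threshold, 13 lost a call, 16 gained one and 50 changed sign. None of those 50 was called in either setting. The number of the 6 genes called for EB+T+E versus control at PND 100 was 0 with normexp, 2 with the mean of all probes (Hgf and Met), 2 with the slide as a block, 0 with only the groups compared and 0 to 3 with 1 array left out. For T+E versus control at PND 100 it was 0 with no filter, 0 with the filter of 17 arrays and 0 to 1 with 1 array left out. For EB+T+E versus EB at PND 100 it was 1 with the slide as a block and 0 to 1 with 1 array left out. It was 0 to 2 for EB+T+E versus T+E at PND 100 and 0 to 1 for EB+T+E versus EB at PND 145 with 1 array left out, and 2 for control PND 100 against PND 30 with only the groups compared. The Hgf difference at PND 145, T+E minus control, was 4.18 with normexp, whose offset raises dim signals. The cause of the other changes was not tested.

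Same-numbered replicates did not pair. Of 31 same-number pairs 9 correlated above 0.1 (range -0.44 to 0.46), and in 0 comparisons did every pair. With the replicate block 1 of the 6 genes, Met, was called for EB+T+E versus EB at PND 100 (-1.50, adjusted p = 0.0466), and no other call of the 6 genes changed.

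The ratios that changed sign had main sizes of up to 0.79. For Met, EB+T+E versus T+E at PND 100 was 0.074 with normexp, 0.018 with quantile scaling and 0.034 with the slide as a block. EB versus control at PND 145 was 0.054 with normexp and 0.051 with quantile scaling, EB versus control at PND 100 -0.026 with the authors' table, and control PND 145 against PND 100 0.027 with normexp and 0.14 with the slide as a block. For Spint1, EB+T+E versus EB at PND 145 was 0.11 with normexp, 0.12 with quantile scaling and 0.028 with the authors' table. For Hgfac it was 0.094 with the mean of all probes, 0.073 with the authors' table and 0.038 with the slide as a block. For St14, EB versus control at PND 145 was 0.077 with quantile scaling and 0.040 with the slide as a block, and control PND 100 against PND 30 -0.015 with quantile scaling. For Spint2, EB versus control at PND 145 was 0.037 with quantile scaling and 0.041 with the slide as a block, and control PND 145 against PND 100 -0.068 with the slide as a block.

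With 1 array left out, the following ranges crossed 0. Hgf ranged from -0.44 to 0.46 for EB+T+E versus EB at PND 100 and from -0.060 to 0.28 for control PND 100 against PND 30. Met ranged from -0.73 to 0.35 for EB+T+E versus T+E at PND 100, from -0.43 to 0.43 for EB versus control at PND 100, from -0.23 to 0.061 for EB versus control at PND 145, from -0.49 to 0.088 for control PND 100 against PND 30 and from -0.38 to 0.19 for control PND 145 against PND 100. Hgfac ranged from -0.31 to 0.73 for T+E versus control at PND 100, from -1.04 to 0.44 for EB+T+E versus EB at PND 100, from -0.068 to 1.13 for EB+T+E versus T+E at PND 100, from -0.49 to 0.40 for EB+T+E versus EB at PND 145 and from -0.13 to 0.44 for EB versus control at PND 30. St14 ranged from -0.24 to 0.018 for EB versus control at PND 145 and from -0.71 to 0.36 for EB+T+E versus EB at PND 100. Spint1 ranged from -0.078 to 0.31 for control PND 145 against PND 100, from -0.32 to 0.21 for EB+T+E versus EB at PND 145, from -1.21 to 0.012 for EB+T+E versus T+E at PND 100 and from -1.03 to 0.19 for EB+T+E versus EB at PND 100. Spint2 ranged from -0.41 to 0.012 for EB versus control at PND 145 and from -1.15 to 0.37 for EB+T+E versus EB at PND 100.

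Counts over all genes moved with the arrays used. Main counts, and their ranges over the other settings and with 1 array left out, were 11 (6 to 76, 7 to 514) for EB at PND 30, 627 (0 to 1605, 7 to 2717) for EB at PND 100 and 133 (0 to 145, 6 to 221) for EB at PND 145, each against control. At PND 100 they were 45 (19 to 248, 0 to 33) for T+E versus control, 2943 (0 to 3382, 706 to 5752) for EB+T+E versus control, 935 (0 to 1588, 8 to 5562) for EB+T+E versus T+E and 400 (0 to 453, 22 to 1180) for EB+T+E versus EB. They were 5350 (3559 to 5419, 2781 to 6060) for EB+T+E versus EB at PND 145, 523 (407 to 2232, 292 to 437) for control PND 100 against PND 30 and 0 (0 to 0, 0 to 75) for control PND 145 against PND 100. Dim probes limit Hgf in control rats, Hgfac and the second Met probe.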
